A study of Mus musculus with 28 samples.

Results

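The genes described here are 10 heat shock proteins and muscle chaperones, namely Hspb1, Cryab, Hspb7, Hspb8, Bag3, Hspa1a, Hspa1b, Hspa8, Dnajb1 and Hsp90aa1. They were chosen by name, and their symbols were matched to Ensembl identifiers in both count tables of the series, which share 55359 identifiers. All 10 members were found in both tables and all 10 passed the filter on low counts in every comparison. RNA was sequenced from the tibialis anterior (TA) muscle of 28 mice of the C57BL/6N strain, 8 weeks old, in 7 groups of 4. The Dnm2 cohort held WT mice on placebo, WT mice given tamoxifen, Dnm2 S619L/+ mice on placebo and Dnm2 S619L/+ mice given tamoxifen. Dnm2 S619L/+ mice carry a point mutation on a single allele of Dnm2, the gene of the membrane-cutting GTPase dynamin 2, in all their cells. The Bin1 cohort held WT mice on placebo, Bin1 mck-/- mice on placebo and Bin1 mck-/- mice given tamoxifen. Bin1 mck-/- mice lack the membrane-curving protein Bin1 where the muscle creatine kinase (mck) promoter drives the deletion, so other cells of the muscle keep the gene. Both are models of centronuclear myopathy, a muscle weakness with misplaced nuclei, and tamoxifen is a drug that binds the estrogen receptor. WT mice given tamoxifen were part of the Dnm2 cohort only. Sex was not labelled.

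Chaperones bind unfolded or damaged proteins and keep them from clumping. Small heat shock proteins (Hspb1, Cryab, Hspb7, Hspb8) hold such proteins without using ATP, and in muscle they sit on the Z-disc and on the filaments that contraction strains. Hsp70 proteins (Hspa1a, Hspa1b, Hspa8) refold them with ATP, helped by J proteins such as Dnajb1, and Hsp90 finishes the folding of many kinases and receptors. Bag3 ties Hsp70 to Hspb8 and passes worn Z-disc proteins such as filamin C to autophagy. When proteins unfold, heat shock factor 1 (Hsf1) binds heat shock elements, which are repeats of GAA and its mirror TTC, and switches on Hspa1a, Hspa1b, Dnajb1, Hsp90aa1, Hspb1 and Bag3. Hspa8 is made at all times.

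Heat shock elements were looked up in RefSeq promoter sequences of build GRCm38.p6, each reaching from 250 bases before to 50 bases after a start site. The table held 8 promoters of 7 members, Hspb1, Hspb7, Hspb8, Bag3, Dnajb1, Hspa1a and Hspa1b, and none was printed for Cryab, Hspa8 or Hsp90aa1. The motif GAANNTTC, which reads the same on both strands, was in 5 of these 8 promoters (those of Hspb1, Hspb8, Bag3, Hspa1a and Hspa1b), against 7.86% of all 32851 promoters. The motif TTCNNGAA, also the same on both strands, was in none of the 8, against 8.52% of all. The longer forms GAANNTTCNNGAA and TTCNNGAANNTTC, each of which contains both shorter motifs, were in none of the 8, against 0.603% of all promoters for either form. In the promoters of Hspb8 and Bag3 the match lay after the start site. The stretches of 60 bases before the start sites that hold the other matches are shown here, for Hspb1, Hspa1a and Hspa1b. These 3 genes are among the 6 members that rose in Dnm2 S619L/+ mice, and the part of the motif in that rise was not tested. GAANNTTC matches are in capitals, and each line reads 5′ to 3′ along the gene.
Hspb1 (chr5:135887796-135887855, plus strand): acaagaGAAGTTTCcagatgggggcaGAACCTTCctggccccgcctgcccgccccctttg
Hspa1a (chr17:34972227-34972286, minus strand): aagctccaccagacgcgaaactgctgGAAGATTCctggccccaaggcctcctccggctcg
Hspa1b (chr17:34959309-34959368, minus strand): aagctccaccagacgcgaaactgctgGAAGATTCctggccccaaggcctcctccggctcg
The stretches of Hspa1a and Hspa1b were the same base for base. The transcripts of these 2 genes are near copies as well, since 58.8% of all stretches of 50 bases in Hspa1a transcripts and 62.3% of those in Hspa1b transcripts of GENCODE M21 occur in the other gene. Reads from such stretches fit both genes. In the table of the Bin1 cohort, reads that map to several places stand on a line that names no gene, so they are in neither count. How such reads were handled in the Dnm2 cohort is not given in the sources used here. The levels of both genes, also per length of exons, may therefore be too low. The 2 genes were also tested as a sum.

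The depth was 24671835 to 35136327 reads on genes per mouse in the Bin1 cohort and 15586333 to 109710886 in the Dnm2 cohort. Levels are given as CPM, that is counts divided by library size, after TMM scaling, which corrects for differences in library composition. The cohorts differed in library protocol, with 300 ng of RNA and 2 min of fragmentation in the Dnm2 cohort and 350 ng and 8 min in the Bin1 cohort, so tests were run within each cohort. The level of Bin1 was 521 to 556 CPM in WT mice of the Bin1 cohort, 51.6 to 62.1 in Bin1 mck-/- mice and 36.1 to 49.5 in those given tamoxifen. The level of Dnm2 was 57.2 to 82.4 CPM over all 28 mice, and the point mutation cannot be read from counts. The 8 skeletal muscle markers summed to 85220 CPM or more in every mouse. In muscle as a whole, fewer cells of a type and less RNA per cell cannot be told apart.

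One mouse stood apart in its levels of several of these genes. WT mouse 5 of the Bin1 cohort had 27.5 CPM of Hspa1a and 27.6 of Hspa1b, while the other 3 WT mice of that cohort had 1.29 to 2.80 and 0.731 to 1.60. It was also the highest of the 4 for Hsp90aa1 (20.1 CPM against 4.67 to 7.03), Hspb1 (45.7 against 25.3 to 27.6), Cryab (2242 against 971 to 1356), Hspb7 (2737 against 732 to 1345), Bag3 (295 against 186 to 209.6) and the Hsp110 gene Hsph1 (122 against 57.5 to 69.1). Its sum over 14 immediate early genes, the genes that a stimulus switches on within minutes, was 368 CPM, the lowest of the 4 WT mice. Values without this mouse are therefore given as well in the Bin1 cohort.

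Per length of the gene's exons, Cryab, Hspb7 and Hspb8 led the order of levels, followed by Bag3, Hspa8 and Hspb1. In placebo WT mice of the Dnm2 cohort, Cryab had 598 ± 188 CPM per kb (SD, n = 4), Hspb7 had 373 ± 173, Hspb8 had 171 ± 10.1, Bag3 had 78.3 ± 16.6, Hspa8 had 48.1 ± 2.30 and Hspb1 had 17.5 ± 6.53. Far below them came Hsp90aa1 with 2.21 ± 0.302 CPM per kb, Dnajb1 with 1.85 ± 0.183, Hspa1a with 0.602 ± 0.423 and Hspa1b with 0.344 ± 0.228. The ranges of Cryab and Hspb7 overlapped, as did those of Hspb7 and Hspb8, of Hsp90aa1 and Dnajb1, and of Hspa1a and Hspa1b, so the order within these pairs was not clear of the spread between mice. The first 6 genes had the same order in placebo WT mice of the Bin1 cohort. In Dnm2 S619L/+ mice Hspb1 stood at 74.2 ± 22.8 CPM per kb, above Hspa8 at 45.3 ± 1.99, and the ranges of these 2 genes did not overlap.

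**Figure D1:**
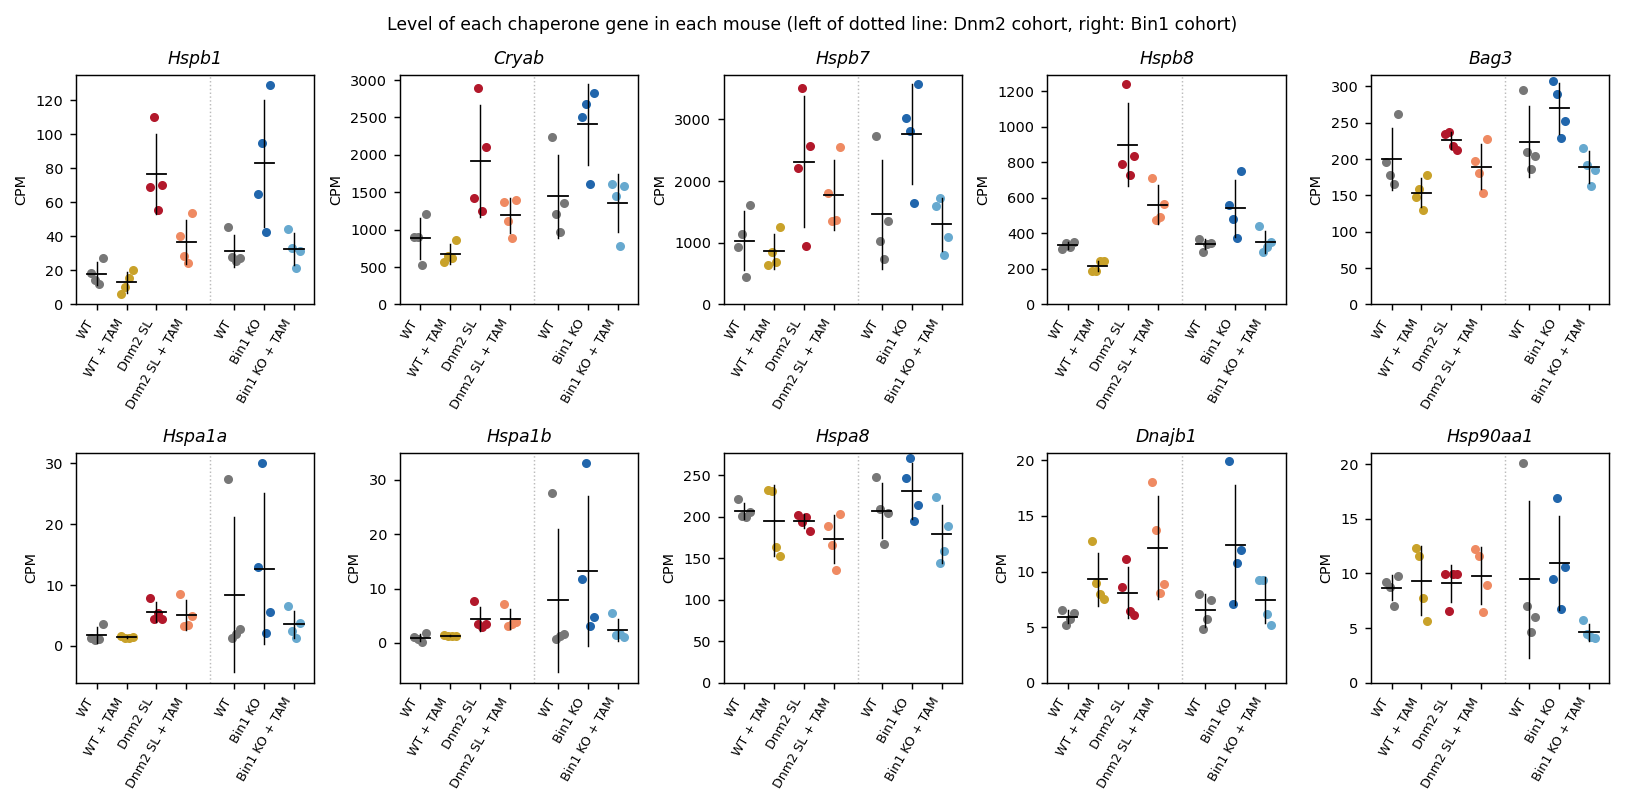
Level of each of the 10 chaperone genes in each mouse, with CPM on the vertical axis and the 7 groups on the horizontal axis (TAM: tamoxifen; SL: S619L/+; KO: mck-/-). Points are mice, horizontal lines group means and vertical lines 1 SD; Hspb8 in Dnm2 S619L/+ mice (727 CPM and above) lies clear of WT mice (353 and below), and WT mouse 5 of the Bin1 cohort stands out for Hspa1a and Hspa1b.

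The comparison of Dnm2 S619L/+ with WT mice asks which chaperones differ in the diseased muscle. All 4 small heat shock proteins and both inducible Hsp70 genes rose, while Hspa8, Dnajb1, Hsp90aa1 and Bag3 did not pass the test. The 6 members called higher compare with 12.1% of all 15439 genes tested, and no member was called lower, against 9.81%. The median log2 fold change was 1.14 over the 10 members and 0.02 over all genes. In 5 of the 10 members every Dnm2 S619L/+ mouse lay above every WT mouse (Hspb1, Cryab, Hspb8, Hspa1a and Hspa1b), against 14.3% of all genes. Macrophage and leukocyte, denervation, slow fiber and endothelial markers differed between these groups as well, as given further on, and their part in these results was not tested.

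Hspb8, the partner of Bag3, had 313, 346, 320.3 and 353 CPM in the 4 WT mice and 791, 1240.2, 727 and 835 in the 4 Dnm2 S619L/+ mice. The lowest diseased mouse was above the highest WT mouse, and the WT mice lay close together. The log2 fold change was 1.43 ± 0.17 (SE), or 2.70-fold, with an edgeR adjusted p of 6.6e-05. Hspb1 (Hsp27), which caps and steadies actin filaments, had 18.5, 14.4, 11.9 and 27.3 CPM in WT mice and 69.4, 110.3, 55.8 and 70.4 in Dnm2 S619L/+ mice. The groups did not overlap, and with a log2 fold change of 2.07 ± 0.37 (4.20-fold, edgeR adjusted p = 0.0014) this rise was about as steep as that of Hspa1b, given next. Cryab (alpha-B crystallin), which binds desmin and titin, had 903, 905, 526 and 1203 CPM in WT mice and 1419, 2901, 1254 and 2099.7 in Dnm2 S619L/+ mice. The groups were close but did not overlap, and the log2 fold change was 1.12 ± 0.27 (edgeR adjusted p = 0.0099). Hspb7, a small heat shock protein of heart and skeletal muscle that binds filamin C, had 932, 1134, 453 and 1611 CPM in WT mice and 2215, 3512, 951 and 2572 in Dnm2 S619L/+ mice. Diseased mouse 3 lay among the WT mice. Its log2 fold change of 1.16 ± 0.40 passed the test narrowly (edgeR adjusted p = 0.047). It was no longer called without the filter on low counts (adjusted p = 0.15), with only the 2 groups fitted (0.10) and in 12 of the 16 fits that left out 1 mouse of the cohort, with adjusted p up to 0.14. It was kept without WT mouse 4, WT tamoxifen mouse 4, diseased mouse 3 or treated diseased mouse 4.

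The inducible Hsp70 genes were low in level and higher in every diseased mouse. Hspa1a had 1.28, 1.02, 1.19 and 3.66 CPM in WT mice and 7.91, 4.42, 5.34 and 4.39 in Dnm2 S619L/+ mice. WT mouse 4 stood above the other WT mice and still below every diseased mouse. Hspa1b had 1.01, 0.821, 0.237 and 1.79 CPM in WT mice and 7.71, 3.46, 2.94 and 3.56 in Dnm2 S619L/+ mice, with mouse 1 the highest. In WT mice these levels rested on 15 to 164 reads for Hspa1a and on 3 to 100 for Hspa1b, the fewest of each in mouse 3. The log2 fold changes were 1.58 ± 0.40 for Hspa1a (edgeR adjusted p = 0.010) and 2.05 ± 0.42 for Hspa1b (edgeR adjusted p = 0.0027). With the counts of both genes summed the log2 fold change was 1.80 ± 0.39 (edgeR adjusted p = 0.0044). The sum does not bring back any reads that were left out because they fit both genes.

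The other members differed by less than the spread between mice allowed to call. Hspa8, the constant Hsp70, had 221, 201, 199.6 and 205 CPM in WT mice and 202, 194, 200.3 and 183 in Dnm2 S619L/+ mice, a log2 difference of -0.09 ± 0.14. Bag3 had 197, 178, 166 and 261 CPM in WT mice and 235, 237, 219 and 213 in Dnm2 S619L/+ mice. WT mouse 4 was above all diseased mice and the other 3 WT mice below them, and the log2 difference was 0.17 ± 0.15 (edgeR adjusted p = 0.42). Hsp90aa1, the inducible Hsp90, had 9.22, 8.80, 7.04 and 9.78 CPM in WT mice and 9.96, 6.58, 9.91 and 9.93 in Dnm2 S619L/+ mice, a log2 difference of 0.06 ± 0.24. Dnajb1, the J protein that heat induces, had 6.55, 5.23, 5.69 and 6.25 CPM in WT mice and 8.63, 11.1, 6.47 and 6.13 in Dnm2 S619L/+ mice. Mice 1 and 2 were above all WT mice and mice 3 and 4 were not, with a log2 difference of 0.44 ± 0.26 (edgeR adjusted p = 0.23).

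Tamoxifen against placebo in Dnm2 S619L/+ mice asks whether treatment moves the chaperones in diseased muscle. Hspb8 fell, and it was the only member called, against 3.05% of all genes called lower and 5.22% called higher. It had 713, 473, 493 and 562 CPM in treated mice, all below the placebo Dnm2 S619L/+ mice, and its log2 fold change was -0.68 ± 0.17 (edgeR adjusted p = 0.022). This call was lost without Dnm2 S619L/+ mouse 2 (log2 fold change -0.49, adjusted p = 0.072), and without treated mouse 2 or treated mouse 3 (adjusted p = 0.087 and 0.088), when only these 2 groups were fitted (adjusted p = 0.12) and, narrowly, with the replicate block (adjusted p = 0.050009). Hspb1 had 40.1, 28.6, 24.4 and 53.6 CPM in treated mice, also below every placebo diseased mouse, with a log2 difference of -1.06 ± 0.35 that was not called (edgeR adjusted p = 0.078). These 2 members without overlap compare with 6.37% of all genes lower in every treated mouse. Cryab had 1367, 1117, 889 and 1393 CPM and Hspb7 had 1812, 1356, 1362 and 2555 in treated mice, overlapping the placebo mice, with log2 differences of -0.69 ± 0.27 and -0.38 ± 0.39. The inducible Hsp70 genes were close to their placebo levels, at 8.56, 3.27, 3.37 and 5.00 CPM for Hspa1a and 7.08, 3.07, 3.45 and 3.80 for Hspa1b, with log2 differences of -0.13 ± 0.38 and -0.03 ± 0.39. Dnajb1 had 18.0, 13.7, 8.02 and 8.86 CPM and a log2 difference of 0.59 ± 0.25 that was not called (edgeR adjusted p = 0.16). The median log2 fold change of the 10 members was -0.21, against -0.03 over all genes.

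Tamoxifen against placebo was also measured in WT mice of this cohort. Hspb8 fell to 189, 191, 242 and 242 CPM, below every placebo WT mouse, a log2 fold change of -0.63 ± 0.17 (edgeR adjusted p = 0.012). It was the only member called, against 11.9% of all genes called lower and 15.8% called higher. Dnajb1 had 12.8, 8.97, 7.96 and 7.49 CPM, above every placebo WT mouse, but its log2 difference of 0.64 ± 0.26 was not called (edgeR adjusted p = 0.070). Among all genes 17.6% were higher and 13.8% lower in every treated WT mouse, so 1 member without overlap in each direction among 10 lies below both shares. Bag3 had 147, 159, 130.4 and 178 CPM, with a log2 difference of -0.38 ± 0.15 (edgeR adjusted p = 0.062). The other 7 members had log2 differences between -0.47 for Hspb1 and 0.36 for Hspa1b, and their groups overlapped. Markers of other cells moved with the drug in this cohort. Of the 8 macrophage and leukocyte genes 6 rose in WT mice, with sums of 45.9 to 75.5 CPM on placebo and 151 to 284 on tamoxifen, and of the 8 denervation and regeneration genes 2 rose and 1 fell, with sums of 77.1 to 78.0 and 99.8 to 126. The 8 osteoblast and bone matrix genes summed to 29.7 to 57.0 CPM in placebo WT mice and 296 to 926 in treated WT mice, and to 11.6 to 18.8 and 47.5 to 533 in Dnm2 S619L/+ mice. The 6 fibroblast genes summed to 931 to 1259 CPM in placebo WT mice and 9127 to 17790 in treated WT mice, and to 1635 to 2309 and 2028 to 13720 in Dnm2 S619L/+ mice. The 8 skeletal muscle genes summed to 125000 to 154500 CPM in placebo and 99350 to 112400 in treated WT mice. Their part in the lower Hspb8 level was not tested.

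The effect of tamoxifen was compared between the genotypes within the Dnm2 cohort with an interaction term. No member was called, with edgeR adjusted p from 0.67 to 0.99, and none had an unadjusted p under 0.05; DESeq2 called 0 as well. Of all genes 0.259% were called. For Hspb8 the difference between the tamoxifen effects was -0.06 ± 0.24 on the log2 scale, and for Hspb1 it was -0.58 ± 0.50.

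Against placebo WT mice, treated Dnm2 S619L/+ mice still had 5 members called higher and none lower, against 15.8% and 13.1% of all genes. This comparison shares its WT mice with that of placebo Dnm2 S619L/+ mice. Hspb8 was higher by 0.75 ± 0.17 on the log2 scale (edgeR adjusted p = 0.0043), Hspa1b by 2.02 ± 0.42 (0.0023), Hspa1a by 1.45 ± 0.39 (0.012) and Hspb1 by 1.01 ± 0.36 (0.044). Dnajb1 was higher by 1.02 ± 0.26 (edgeR adjusted p = 0.0079), with 8.02 CPM in the lowest treated mouse and 6.55 in the highest WT mouse. Hspb8, Hspa1b and Dnajb1 did not overlap with WT mice, against 12.7% of all genes that were higher without overlap. The Hspb1 call was lost without the filter on low counts (adjusted p = 0.13) and in 10 of the 16 fits that left out 1 mouse (WT mouse 1, 2 or 3, WT tamoxifen mouse 2 or 3, diseased mouse 1 or 4, or treated mouse 1, 2 or 4), and the Hspa1a call without treated mouse 1 (adjusted p = 0.050). Cryab and Hspb7 had log2 differences of 0.43 ± 0.27 and 0.78 ± 0.39 and were not called.

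**Figure D2:**
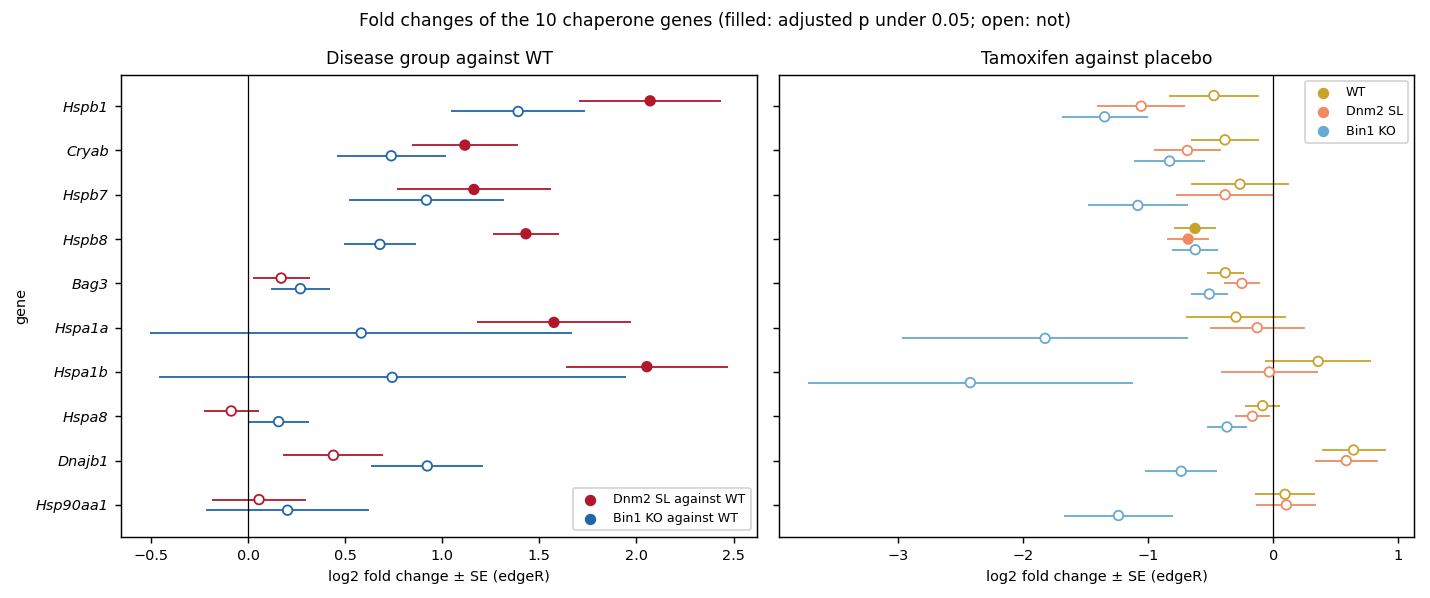
Log2 fold change of each gene with its SE (horizontal axis) for the disease comparisons (left) and the tamoxifen comparisons (right), with filled points for adjusted p under 0.05. Hspb8 is the only filled point under tamoxifen, in WT (-0.63) and in Dnm2 S619L/+ mice (-0.68), and all 10 points of Bin1 mck-/- mice are open in both panels.

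In the Bin1 cohort no member passed the test in any of the 3 comparisons. Bin1 mck-/- mice on placebo had higher mean levels of all 10 members than WT mice, with a median log2 fold change of 0.71 against 0.01 over all genes. Of all genes tested 2.61% were called by edgeR. At an unadjusted p under 0.05 there were 5 members (Hspb1, Cryab, Hspb7, Hspb8 and Dnajb1), and DESeq2, another count model, called 3 (Hspb1, Hspb8 and Dnajb1). The share of all genes at that unadjusted p or by DESeq2 is not given here, and the 2.61% does not stand for it. Hspb1 had 45.7, 27.6, 25.3 and 27.6 CPM in WT mice and 65.2, 94.9, 42.5 and 129 in Bin1 mck-/- mice. WT mouse 5 lay above Bin1 mck-/- mouse 3, and the log2 difference was 1.39 ± 0.34 (edgeR adjusted p = 0.058). Hspb8 had 367, 298, 341 and 347 CPM in WT mice and 559, 481, 373 and 752 in Bin1 mck-/- mice. It was the only member without overlap, against 9.09% of all genes that were higher without overlap, and its log2 difference was 0.68 ± 0.18 (edgeR adjusted p = 0.059). Both were called without Bin1 mck-/- mouse 3, the lowest of its group for both genes, at log2 fold changes of 1.60 and 0.81 (adjusted p = 0.013 and 0.015). Without WT mouse 5 the log2 differences were 1.62 for Hspb1 and 0.71 for Hspb8, and neither was called (adjusted p = 0.053 and 0.085).

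Cryab had 2242, 1205, 971 and 1356 CPM in WT mice and 2505, 2685, 1611 and 2826 in Bin1 mck-/- mice, a log2 difference of 0.74 ± 0.28. Hspb7 had 2737, 1021, 732 and 1345 CPM in WT mice and 3021, 2804, 1637 and 3568 in Bin1 mck-/- mice, a log2 difference of 0.92 ± 0.40. In both genes WT mouse 5 was the only WT mouse inside the range of Bin1 mck-/- mice. Without it the log2 differences were 1.02 for Cryab and 1.41 for Hspb7, with edgeR adjusted p of 0.056 and 0.053. Dnajb1 had 8.00, 4.87, 5.73 and 7.47 CPM in WT mice and 19.9, 7.11, 10.8 and 11.9 in Bin1 mck-/- mice, a log2 difference of 0.92 ± 0.29 (edgeR adjusted p = 0.094), which was 1.03 without WT mouse 5 (adjusted p = 0.11). For Hsp90aa1 the log2 difference was 0.20 with that mouse and 0.87 without it (adjusted p = 0.095), for Bag3 without it 0.42 (adjusted p = 0.11) and for Hspa8 0.25 (adjusted p = 0.45).

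The inducible Hsp70 genes varied between mice of one group more than between groups in the Bin1 cohort. Hspa1a had 13.0, 30.0, 2.15 and 5.51 CPM in Bin1 mck-/- mice and Hspa1b had 11.8, 33.0, 3.16 and 4.79, while WT mouse 5 had 27.5 and 27.6. The log2 differences were 0.58 ± 1.1 and 0.74 ± 1.2, with SEs larger than the values. Without WT mouse 5 they were 2.58 ± 0.91 and 3.35 ± 0.96, and still not called (edgeR adjusted p = 0.17 and 0.10). Without Bin1 mck-/- mouse 2, on the other hand, they were -0.29 and -0.25. Hsp90aa1 had its highest levels in the same mice, with 20.1 CPM in WT mouse 5 and 16.9 in Bin1 mck-/- mouse 2, and Hsph1 had 122 and 123. The most Dnajb1, 19.9 CPM, was in Bin1 mck-/- mouse 1. The immediate early genes summed to 368 CPM in WT mouse 5, the lowest of the 8 placebo mice of the cohort. Bin1 mck-/- mouse 2 had 547 CPM, in a group that ranged from 461 to 608 CPM.

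**Figure D3:**
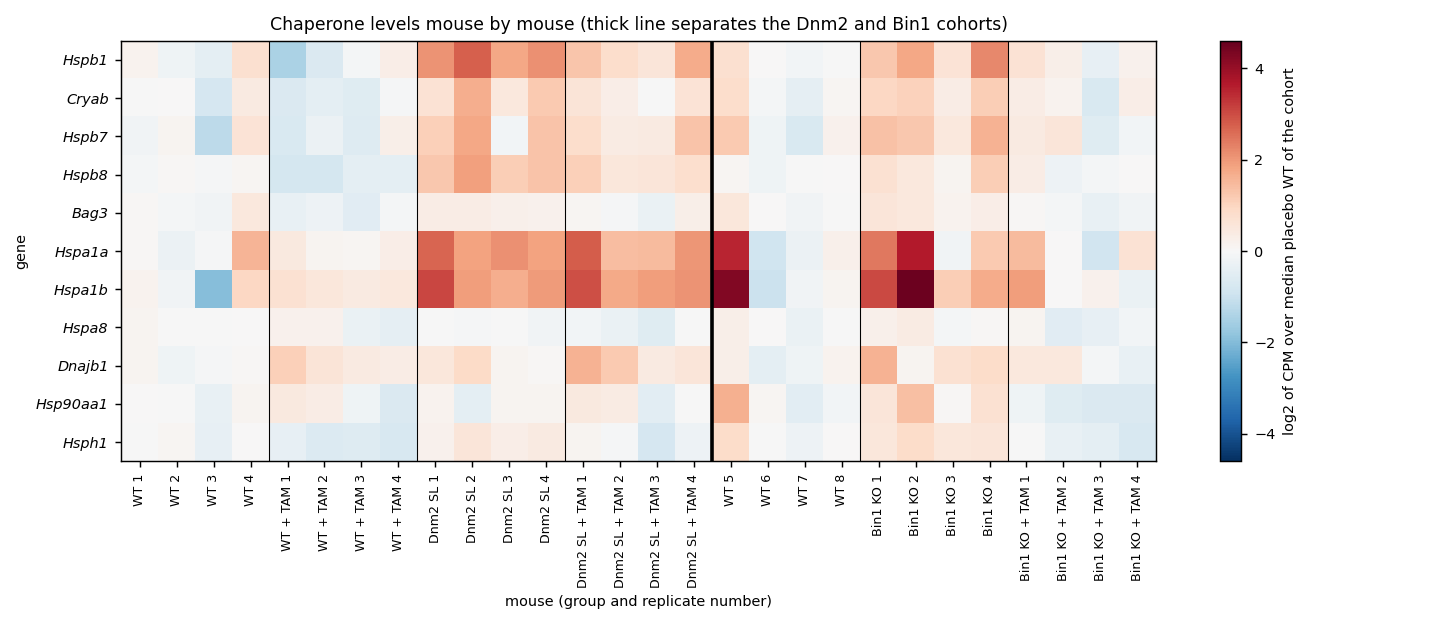
Log2 of each gene's CPM over the median placebo WT mouse of the same cohort, with genes in rows and the 28 mice in columns, red for higher and blue for lower. Hspa1a and Hspa1b are at their reddest in WT mouse 5 and Bin1 KO mouse 2, and the 4 small heat shock proteins are red across the Dnm2 SL mice except Hspb7 in mouse 3.

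Bin1 mck-/- mice given tamoxifen had lower mean levels of all 10 members than those on placebo, with a median log2 fold change of -0.96 against 0.00 over all genes. None was called by edgeR, against 3.13% of all genes, while 8 had an unadjusted p under 0.05 and DESeq2 called 5 (Hspb1, Cryab, Hspb8, Hsp90aa1 and Bag3). The 3.13% is the edgeR share at adjusted p. No share of all genes is given here for the unadjusted p or for DESeq2, so those counts have nothing to be set against. Hspb1 had 44.1, 33.1, 21.2 and 31.7 CPM in treated mice, with 1 of them above Bin1 mck-/- mouse 3, and a log2 difference of -1.35 ± 0.34 (edgeR adjusted p = 0.060). Cryab (1611, 1445, 779 and 1582 CPM in treated mice), Bag3 (216, 193, 163 and 185) and Hsp90aa1 (5.71, 4.43, 4.15 and 4.13) were below every placebo Bin1 mck-/- mouse, Cryab by less than the rounding shown. These 3 members without overlap compare with 5.11% of all genes. The log2 differences were -0.83 ± 0.28, -0.51 ± 0.15 and -1.24 ± 0.43, with edgeR adjusted p of 0.12, 0.073 and 0.13. Hspb8 had 440.4, 294, 322 and 348 CPM and a log2 difference of -0.62 ± 0.18 (edgeR adjusted p = 0.074). Hspb8 and Hspb1 were called without Bin1 mck-/- mouse 3, and Hsp90aa1 and Bag3 when WT mouse 5 was left out of the fit (adjusted p = 0.018 and 0.042). That mouse is in neither group. Without it the log2 differences of these 2 genes were still -1.24 and -0.51, while their SEs went from 0.43 to 0.25 and from 0.15 to 0.12. Hspa1a had 6.58, 2.46, 1.32 and 3.84 CPM and Hspa1b 5.45, 1.46, 1.67 and 1.17, with mouse 1 the highest, and log2 differences of -1.83 ± 1.14 and -2.42 ± 1.30. Without WT mouse 5 no other member was called, and Hspb1 came nearest (log2 difference -1.35, adjusted p = 0.052). Markers of other cells differed between these groups as well. Macrophage and leukocyte genes summed to 117 to 227 CPM on placebo and 43.4 to 150 on tamoxifen, and the 5 erythrocyte genes to 675 to 1985 and 171 to 1040, so both sums overlapped. Single markers called were Plin1 of adipocytes (-3.32 ± 0.75, edgeR adjusted p = 0.023) and the acetylcholine receptor gene Chrna1 of denervated fibers (-1.19 ± 0.23, adjusted p = 0.020), both lower, and Pvalb of fast fibers (1.33 ± 0.28, adjusted p = 0.023), higher. The sums of their lists overlapped, with denervation and regeneration genes at 86.2 to 218 CPM on placebo and 92.9 to 221 on tamoxifen. Adipocyte genes summed to 234.5 to 399 and 247 to 319 CPM, and skeletal muscle genes to 100800 to 140000 and 119500 to 188300. Other denervation and regeneration genes went both ways, such as Myog (-1.37) and Myh8 (1.16), neither called. Their part in the lower chaperone levels was not tested.

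Treated Bin1 mck-/- mice overlapped with WT mice in all 10 members and none was called, against 0.849% of all genes; DESeq2 called 0, and 1 member, Hsp90aa1, had an unadjusted p under 0.05. The log2 differences of the 4 small heat shock proteins lay between -0.17 for Hspb7 and 0.06 for Hspb8, and without WT mouse 5 all 4 were above zero, from 0.09 for Hspb8 to 0.32 for Hspb7, and not called. Hsp90aa1 had a log2 difference of -1.04 ± 0.43 (edgeR adjusted p = 0.29), which was -0.37 without WT mouse 5.

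Effects were compared between the models in a joint fit of the 28 mice, in which model and library protocol cannot be told apart. For the disease effect no member was called, against 0.312% of all genes, with 1 unadjusted p under 0.05 and 0 calls by DESeq2. The difference closest to the threshold was that of Hspb8, with 0.74 ± 0.25 more on the log2 scale in Dnm2 S619L/+ than in Bin1 mck-/- mice (edgeR adjusted p = 0.19). For Hspb1 the difference was 0.67 ± 0.51 and for Cryab 0.37 ± 0.40. For the tamoxifen effect in diseased mice no member was called either, against 1.71% of all genes, with 2 unadjusted p under 0.05. The largest difference against its error was that of Dnajb1, whose log2 difference under tamoxifen was 0.59 in Dnm2 S619L/+ and -0.74 in Bin1 mck-/- mice. The difference of 1.36 ± 0.40 had an edgeR adjusted p of 0.058, and DESeq2 called it. For Hspb8 the tamoxifen effects differed by -0.02 ± 0.25. The called rise in one model and the missing call in the other are therefore not shown to differ for any of the small heat shock proteins.

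A further 67 chaperone genes in 9 lists were set beside the members in the same fits. In Dnm2 S619L/+ mice 13 rose and 8 fell, which is 13 and 8 of 67 against 12.1% and 9.81% of all genes, and their median log2 fold change was 0.15. Of the other 3 small heat shock proteins, Hspb3 (0.97 ± 0.21, edgeR adjusted p = 0.0050) and Hspb2 (0.88 ± 0.25, 0.022), which pair with each other in muscle, rose. Hspb2 lies head to head with Cryab in the genome, and the 2 genes rose together. Hspb6 had a log2 difference of 0.47 and was not called. Of 8 partners of Bag3 and the Z-disc, Synpo2, the adaptor that brings Bag3 to autophagy membranes, fell by 0.73 ± 0.12 (edgeR adjusted p = 0.00082). Flnc (filamin C), the client of Bag3, rose by 0.86 ± 0.29 (0.045), and Wdr1, an actin-severing cofactor, rose by 0.42 ± 0.13. Of 7 mitochondrial chaperones, Hspa9 (mortalin, -0.60 ± 0.12, edgeR adjusted p = 0.0024), Grpel2 (-0.47), Dnaja3 (-0.38) and Hspd1 (Hsp60, -0.48) fell, while Hspe1 (Hsp10), the lid of Hspd1, rose by 0.70. Of 4 genes of heat shock factors and their binding protein, Hsf4 (0.72) and Hsbp1 (0.32) rose, and Hsf1 itself was not called, with a mean of 41.3 ± 3.68 CPM in WT and 44.9 ± 5.21 in Dnm2 S619L/+ mice. Of 9 other Hsp70 and Hsp110 genes Hspa4l (0.54) and Hspa2 (0.68) rose and Hspa12b (-0.67) fell, and Hsph1, at 98.0, 123, 105 and 112 CPM against 84.3, 89.3, 64.9 and 84.7 in WT mice, was not called. Of 10 genes of the Hsp90 list, 9 J proteins, 9 Hsp70 cochaperones and 8 CCT subunits, 4 rose (Ahsa2, Ptges3, Hspbp1 and Cct3) and 2 fell (Fkbp4 and Dnaja2), with log2 fold changes between -0.29 and 0.49.

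With tamoxifen most of the calls among these 67 genes were lower. In WT mice 23 of the 67 fell and 1, Hspa13, rose, against 11.9% and 15.8% of all genes, with a median log2 fold change of -0.28 against -0.04 over all genes. Of the 7 mitochondrial chaperones 6 fell, among them Grpel2 (-0.50 ± 0.10, edgeR adjusted p = 0.0023) and Hspa9 (-0.47), and Dnajb2 (-0.57 ± 0.11, adjusted p = 0.0016), a J protein of nerve and muscle, and Synpo2 (-0.56 ± 0.12, adjusted p = 0.0036) fell too. Hspb6 (Hsp20), a small heat shock protein of muscle, fell by 0.72 ± 0.18, and Unc45b, the myosin chaperone of muscle, fell by 0.63 ± 0.15. In Dnm2 S619L/+ mice 7 of the 67 fell and none rose, against 3.05% of all genes called lower and 5.22% called higher. Cct5 (-0.37 ± 0.09, edgeR adjusted p = 0.017), Ahsa2 (-0.39, 0.022) and Cct3 (-0.38, 0.028) came first, with Hsph1 at -0.57. None of the 67 was called in the interaction. In Bin1 mck-/- mice 5 of the 67 fell and 2 rose under tamoxifen, against 1.61% and 1.52% of all genes, with Wdr1 (-0.89 ± 0.17, edgeR adjusted p = 0.013), Hspa4l (-0.86 ± 0.18, 0.020), Hspb6 (-0.86 ± 0.19), Hsph1 (-0.99 ± 0.22) and Dnaja1 (-0.88 ± 0.22) lower, and Hspb2 (0.48 ± 0.11, 0.026) and Dnajb9 (0.59) higher. Hspb2 thus rose where its neighbour Cryab had a log2 difference of -0.83. Before treatment Hspa2 (0.64 ± 0.15, edgeR adjusted p = 0.034) was the only one of the 67 called in Bin1 mck-/- mice, near the share of all genes called higher (1.99%). In treated Bin1 mck-/- against WT mice, Hspb2 (0.52 ± 0.11, edgeR adjusted p = 0.033) and Dnajb9 (0.72 ± 0.14, 0.029) of the 67 were called higher. Hspa1l (-0.95 ± 0.18, edgeR adjusted p = 0.028) was called lower. Of all genes 0.465% were called higher and 0.384% lower in that comparison.

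**Figure D4:**
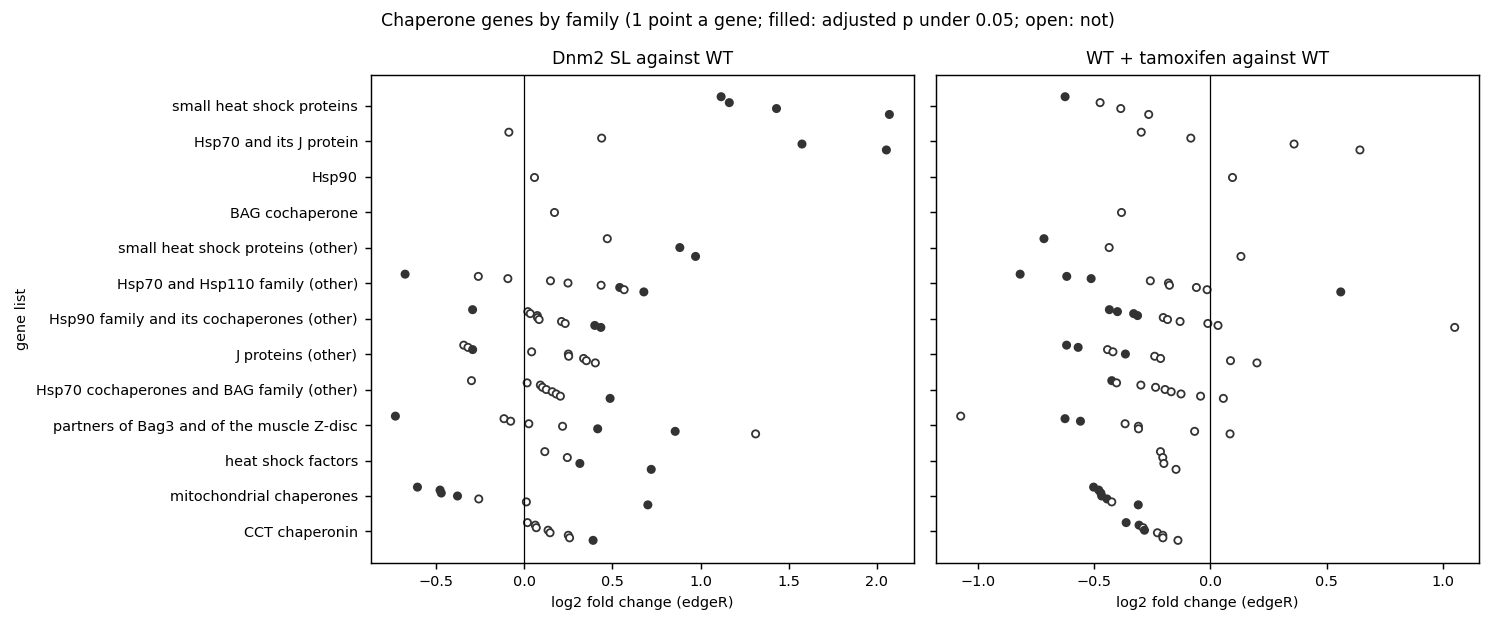
Log2 fold change (horizontal axis) of the 10 members (upper 4 rows) and of 67 further chaperone genes by family (lower 9 rows) in Dnm2 S619L/+ against WT mice (left) and tamoxifen-treated against placebo WT mice (right), with filled points for adjusted p under 0.05. The small heat shock proteins lie to the right of zero in the left panel, while 6 of 7 mitochondrial chaperones are filled and below zero in the right panel.

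Several members moved together across mice, within families and between them. Over the 16 mice of the Dnm2 cohort the Pearson r of log2 CPM was 0.93 between Cryab and Hspb1, 0.93 between Cryab and Hspb7, 0.94 between Hspb1 and Hspb8 and 0.90 between Hspa1a and Hspa1b, and over the 12 mice of the Bin1 cohort these were 0.92, 0.95, 0.90 and 0.95. Members of different families were also alike, with 0.82 between Hspa1a and Hspb8 and 0.81 between Hspa1a and Hspb1 in the Dnm2 cohort, and 0.91 between Bag3 and Hsp90aa1 and 0.87 between Hspa1b and Hsp90aa1 in the Bin1 cohort. Hspa8 had r between -0.18 and -0.06 with the 4 small heat shock proteins in the Dnm2 cohort and between 0.57 and 0.75 in the Bin1 cohort. These values are descriptions over mice that include group differences, and the transcripts of Hspa1a and Hspa1b are near copies. Of 14572 genes tested in both cohorts, those outside the 10 whose pattern was most like Cryab's, by the lower of the r in each cohort, were Opn1mw (0.90), Hectd2os (0.89), Csrp3 (0.89), Ttc9 (0.89) and Plpp1 (0.89). Csrp3 encodes the muscle LIM protein of the Z-disc. For Dnajb1 the 5 were Rnase4 (0.73), Efs (0.72), Plxdc2 (0.71), Cmklr1 (0.71) and BC034090 (0.71), so no gene followed Dnajb1 as closely as these 5 followed Cryab.

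Markers of other cells and states moved with the disease groups. In Dnm2 S619L/+ mice 6 of 8 denervation and regeneration genes rose, with sums of 77.1 to 78.0 CPM in WT and 166 to 328 in diseased mice. Of 8 slow fiber genes 6 rose and Myl3 fell, with sums of 125 to 216 CPM in WT and 105 to 413 in diseased mice. Of 8 macrophage and leukocyte genes 4 rose, with sums of 45.9 to 75.5 against 70.0 to 323 CPM, and of 6 endothelial genes 5 fell, with sums of 371 to 713 against 173 to 457 CPM. The fibroblast sum was higher and the bone sum lower in every diseased mouse, in the ranges given above. Of the 6 fibroblast genes 1 was called higher, and of the 8 bone genes 1 was called lower. Both counts are near the shares of all genes, which were 12.1% called higher and 9.81% called lower. Of 14 immediate early genes 5 rose, among them Junb (2.23 ± 0.37) and Egr1 (2.65 ± 0.55), while their sum of 335 to 876 CPM in WT overlapped with 493 to 1010 CPM in diseased mice. In Bin1 mck-/- mice 5 of 8 macrophage and leukocyte genes rose, with sums of 35.6 to 56.9 against 117 to 227 CPM. So did 3 of 8 denervation and regeneration genes, 3 of 6 adipocyte genes and 2 of 14 immediate early genes. Of all genes 1.99% were called higher in this comparison. Lep of the adipocyte list and the leukocyte gene Cd3e were not tested there. Slow fiber genes summed to 338 to 521 CPM in WT and 183 to 312 in Bin1 mck-/- mice, with Myl3 lower (-1.60 ± 0.25, edgeR adjusted p = 0.012). The other slow fiber genes went both ways, such as Myl2 (-2.53), Tnni1 (2.45) and Tnnt1 (1.47), and none of them was called. Fibroblast genes summed to 800 to 1015 and 1708 to 4179 CPM with none of the 6 called. The T cell gene Cd3e averaged 0.0481 CPM in WT and 1.04 CPM in Dnm2 S619L/+ mice of the Dnm2 cohort, and the osteocyte gene Mepe averaged 0.291 CPM in treated WT mice and was below that in every other group. Neither gene was tested in Dnm2 S619L/+ against WT mice, though both count among the genes of their lists. The spread between mice is not given for these means, so no difference of the groups is read from them. Of the 8 skeletal muscle genes only Myh4 was called in Dnm2 S619L/+ mice (-0.75 ± 0.24, edgeR adjusted p = 0.033). In Bin1 mck-/- mice only Pvalb was (-1.12 ± 0.28, edgeR adjusted p = 0.0498). Their sums overlapped, at 125000 to 154500 CPM in WT and 99610 to 146600 in Dnm2 S619L/+ mice, and 129400 to 161800 and 100800 to 140000 in the Bin1 cohort. The part of these cells and states in the chaperone levels was not tested.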

How the data were processed

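The counts deposited by the authors are whole numbers of reads assigned to each Ensembl identifier, not normalized, for TA muscle of 28 mice, with a table for each cohort. Per the labels, libraries were stranded and made from polyadenylated RNA, and the submitters' processing notes name cutadapt 1.10, Bowtie 1.2.2, STAR 2.5.3 and HTSeq 0.6.1p1 and build mm39, without their roles. The strand setting of the counting is not given in the sources used here. The table of the Bin1 cohort also holds 4 lines that name no gene, with 22.0% to 30.8% of all counts per mouse. Reads mapping to several places were 15.4% to 20.2% of all. These lines were left out.

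Groups came from the sample labels. The 10 members and all lists were chosen with earlier results of these data known. Symbols came from GENCODE M21, which named 52083 of the 55359 identifiers of the Bin1 cohort and of the 55416 of the Dnm2 cohort. Counts were tested with edgeR 4.0.16 in R 4.3.3 (TMM, filterByExpr, robust quasi-likelihood test, prior count 2) over all genes, each cohort by itself, with a threshold of 0.05 on p-values adjusted by Benjamini-Hochberg. Values with ± are SDs for levels and SEs for log2 fold changes. The 10 members were named in every comparison; of the other chaperones, the 3 called genes with the smallest adjusted p and those that a group result turned on were named. The scripts were tested on simulated counts with 200 changed genes.

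Nothing says that mice of a group differ in litter or day, so p-values measure only the spread between these mice. Within groups the chi-square per gene between mice was never under 14.1, and each mouse counted as its own sample. Alternatives were DESeq2 1.42.0, RLE normalization, no filter, the study's filter of more than 10 reads in 90% of mice, only the groups compared, a replicate block, Hspa1a and Hspa1b summed, and leaving out each mouse. No alternative was added later. CPM per kb used the union of GENCODE M21 exons.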

Additional observations from a re-analysis of the deposited data

Results flagged for a closer look

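Among the 70 sets of 4 mice examined (10 genes in 7 groups), 8 held a mouse whose distance to its nearest neighbour was above Dixon's 95% limit when divided by the whole range of the group, and chance alone flags about 1 set in 20. WT mouse 5 of the Bin1 cohort accounted for 4 of them, as the highest of its group for Hspa1a (27.5 CPM), Hspa1b (27.6 CPM), Hsp90aa1 (20.1 CPM) and Hspb1 (45.7 CPM). WT mouse 4 of the Dnm2 cohort was the highest of its group for Hspa1a, at 3.66 CPM. Dnm2 S619L/+ mouse 1 was the highest of its group for Hspa1b, at 7.71 CPM, and Bin1 mck-/- mouse 1 given tamoxifen was the highest of its group for Hspa1b, at 5.45 CPM. Dnm2 S619L/+ mouse 2, which had the most Hspb1, Cryab, Hspb7 and Hspb8 of its group, was the lowest of it for Hsp90aa1, at 6.58 CPM.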

How the results depend on the processing

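No call of a member changed sign under any alternative, and 9 of the 13 called differences of single members kept their call in every alternative run. Exceptions were Hspb7 in Dnm2 S619L/+ against WT mice, Hspb8 in treated against placebo Dnm2 S619L/+ mice, and Hspb1 and Hspa1a in treated Dnm2 S619L/+ against WT mice. DESeq2 called 3 members instead of 1 in WT mice under tamoxifen, 2 instead of 1 in Dnm2 S619L/+ mice under tamoxifen, 3 instead of 0 in Bin1 mck-/- against WT mice, 5 instead of 0 in Bin1 mck-/- mice under tamoxifen and 1 instead of 0 in the difference of tamoxifen effects. Without the filter on low counts 1 member was called in Bin1 mck-/- against WT mice and 2 in Bin1 mck-/- mice under tamoxifen. With only the groups compared, 2 were called in WT mice under tamoxifen, 0 in Dnm2 S619L/+ mice under tamoxifen and 1 in Bin1 mck-/- against WT mice. The cause of these changes was not tested, and no shares of all genes are given here for these alternatives.

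Same-numbered mice had correlations of -0.33 to 0.34 in the Dnm2 cohort and -0.18 to 0.15 in the Bin1 cohort, so the numbers did not pair mice. With the replicate block, 6 members were called in Dnm2 S619L/+ against WT mice, 3 in WT mice under tamoxifen, 0 in Dnm2 S619L/+ mice under tamoxifen, 6 in treated Dnm2 S619L/+ against WT mice, 0 in the interaction and 0 in Bin1 mck-/- mice under tamoxifen. The shares of all genes called with the block are not given here, so these counts have nothing to be set against.

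Leaving out 1 mouse at a time gave 5 to 6 members called in Dnm2 S619L/+ against WT mice, 1 to 2 in WT mice under tamoxifen, 0 to 2 in Dnm2 S619L/+ mice under tamoxifen, 3 to 5 in treated Dnm2 S619L/+ against WT mice, 0 to 2 in each of the first 2 comparisons of the Bin1 cohort and 0 to 1 in the difference of tamoxifen effects. The shares of all genes called in these fits are not given here either. Among members that were not called, log2 differences crossed zero when 1 mouse was left out. In Dnm2 S619L/+ against WT mice this was Hsp90aa1 (-0.0043 to 0.18). In WT mice under tamoxifen these were Hspb7 (-0.51 to 0.030), Hspa1a (-0.49 to 0.32), Hspa8 (-0.18 to 0.023) and Hsp90aa1 (-0.071 to 0.28). In Dnm2 S619L/+ mice under tamoxifen these were Hspa1a (-0.50 to 0.10), Hspa1b (-0.37 to 0.39) and Hsp90aa1 (-0.019 to 0.26), and in treated Dnm2 S619L/+ against WT mice Bag3 (-0.18 to 0.074). In Bin1 mck-/- against WT mice these were Hspa1a (-0.29 to 2.58), Hspa1b (-0.25 to 3.35) and Hsp90aa1 (-0.088 to 0.87). In treated Bin1 mck-/- against WT mice these were Hspb1 (-0.14 to 0.27), Cryab (-0.24 to 0.19), Hspb7 (-0.39 to 0.32), Hspb8 (-0.073 to 0.12), Hspa1a (-1.71 to 0.76) and Hspa1b (-2.41 to 0.93). Summing Hspa1a and Hspa1b gave -0.010 in WT mice under tamoxifen, against 0.36 for Hspa1b alone, and Hspa1b in Dnm2 S619L/+ mice under tamoxifen was 0.0077 with only the groups compared, against -0.03. Hspa1a and Hspa1b rest on 3 to 164 reads in placebo WT mice of the Dnm2 cohort, and differences within their SEs were not detectable at this depth.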
